A study of Caenorhabditis elegans with 2 samples.

Results

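The genes described here are egl-26 and 8 other genes of vulval development in the nematode Caenorhabditis elegans: egl-17, lin-39, lin-3, let-23, lin-31, lin-1, lin-11 and cog-1. They are 9 of 19973 protein-coding genes on the nuclear chromosomes, and they were named by a list drawn up with these peaks known. egl-26 was chosen by its strong peak, so its rank and signal are given as a description and support nothing. The data are a ChIP-seq experiment, in which DNA bound by a protein is pulled down with that protein and sequenced. The protein was PEB-1, which binds DNA through a zinc finger of the FLYWCH type, fused to eGFP. The 2 biological replicates were whole OP86 worms of both sexes at the second larval stage, of unknown age per the labels. OP86 animals carry wgIs86, a transgene inserted for the tagged PEB-1, together with the unc-119(ed3) allele, and both replicates share this genotype. The question open to this design is where around these genes the tagged protein was found, since there was 1 group and no untagged or untreated group.

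The vulva forms from a row of epidermal precursor cells below the gonad. In the stage after the one sampled, the anchor cell of the gonad secretes the EGF-like ligand LIN-3, the receptor LET-23 receives it, and a Ras and MAP kinase cascade acts on the transcription factors LIN-1 and LIN-31. The Hox protein LIN-39 keeps the precursor cells able to respond, Notch and Wnt signals refine the pattern, and the descendants then build a stack of rings, a step for which EGL-26 is needed. Animals were used whole, so cells of the vulval lineage were few among those assayed, and whether those cells contributed to any peak was not tested.

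For each gene all peaks were taken whose summit lay from 5000 bp upstream of the annotated gene to 1000 bp downstream of it. A thresholded list of 160 peaks was deposited, with a pooled list from both replicates and a list for each replicate of 30000 peaks each. The 3 long lists include background by design, so a low-ranking entry in them is a candidate only. Rank 1 is the highest peak of a list. Signal is the peak height as the authors deposited it, and its scale differs between lists, so it is read only within a list. The sources used here give no read depth. Of the thresholded peaks, 149 of 160 overlapped a peak of each replicate, 125 ranked within the first 160 of replicate 1 and 56 within the first 160 of replicate 2.

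The sequences under the summits that the results turn on are shown on the plus strand, which is that of each gene, from the RefSeq copy of assembly WBcel235, which is ce11. Capitals mark 2 short motifs on either strand. The first is the core of a binding consensus known for PEB-1, which is TGCCA or TGCCG after any base but a C, and the other is GAGAGA. The egl-26 stretch is 300 bases at chrII:66360-66659 with the summit at base 151. It is shown because it carries the only thresholded peak of the 9 genes.
egl-26: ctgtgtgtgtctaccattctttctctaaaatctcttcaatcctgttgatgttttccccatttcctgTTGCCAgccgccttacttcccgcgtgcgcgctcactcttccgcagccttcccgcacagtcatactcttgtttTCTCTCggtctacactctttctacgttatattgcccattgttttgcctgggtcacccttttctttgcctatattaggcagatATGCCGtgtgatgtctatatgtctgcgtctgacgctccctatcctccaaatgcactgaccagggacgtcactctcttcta
The other stretches have 50 bases on each side of the summit, which is base 51. cog-1 (chrII:14907654-14907754) is shown for the agreement of its summits, lin-31 (chrII:3985993-3986093) for the second-best pooled rank, egl-17 (chrX:490874-490974) for the widest gap in rank between replicates among these 4, and let-23 (chrII:9197330-9197430) for its place beside the gene start. fos-1 (chrV:6000450-6000550) is a gene of anchor cell invasion outside the 9.
cog-1: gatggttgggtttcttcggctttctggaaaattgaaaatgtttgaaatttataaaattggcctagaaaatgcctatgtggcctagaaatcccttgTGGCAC
lin-31: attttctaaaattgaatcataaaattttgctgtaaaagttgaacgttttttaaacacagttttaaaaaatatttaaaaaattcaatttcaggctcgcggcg
egl-17: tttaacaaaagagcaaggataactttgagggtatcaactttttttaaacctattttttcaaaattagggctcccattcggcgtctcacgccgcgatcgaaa
let-23: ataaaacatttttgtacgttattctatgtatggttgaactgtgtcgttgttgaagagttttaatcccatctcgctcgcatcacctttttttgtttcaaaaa
fos-1: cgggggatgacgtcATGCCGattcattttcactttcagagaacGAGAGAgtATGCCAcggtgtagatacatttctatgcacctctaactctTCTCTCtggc
The egl-26 stretch holds the core as TTGCCA, starting 84 bases before the summit at -84, and as ATGCCG, starting at 70 bases after it, with GAGAGA read on the other strand starting at -12. The fos-1 stretch holds the core at -36 and 1 base after the summit and GAGAGA at -7 and 41. The cog-1 stretch has a core match at 45 bases, and those of lin-31, egl-17 and let-23 have no capitals. Both egl-26 core matches lie more than 50 bases from the summit, beyond the width printed for the other genes. Within 100 bp of each of these summits the core matches were 2 at egl-26, 1 at cog-1 and 0 at lin-31, egl-17 and let-23. A match is a description of these letters and not a site of binding.

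Of the 9 genes, egl-26 had a thresholded peak and the other 8 had 0. By the same window 1.19% of all protein-coding genes had a thresholded peak, and this share is given beside the count without being read, since the peak chose the gene. A pooled peak among the 1000 highest-ranked lay in the window of 1 member, again egl-26, against 7.44% of all protein-coding genes. Any pooled peak lay in the window of all 9, where 91.6% of genes had at least 1, so that count is near the background. The windows of the 9 genes held 31 pooled, 27 replicate 1 and 32 replicate 2 peaks. That is 2.45, 2.14 and 2.53 peaks per 10 kb of window, against 3.01, 3.04 and 3.01 over the windows of all protein-coding genes. The pooled density ranged from 0.986 at lin-1, the longest of the 9 genes, to 6.68 at lin-31, so these sums do not describe each gene.

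**Figure D1:**
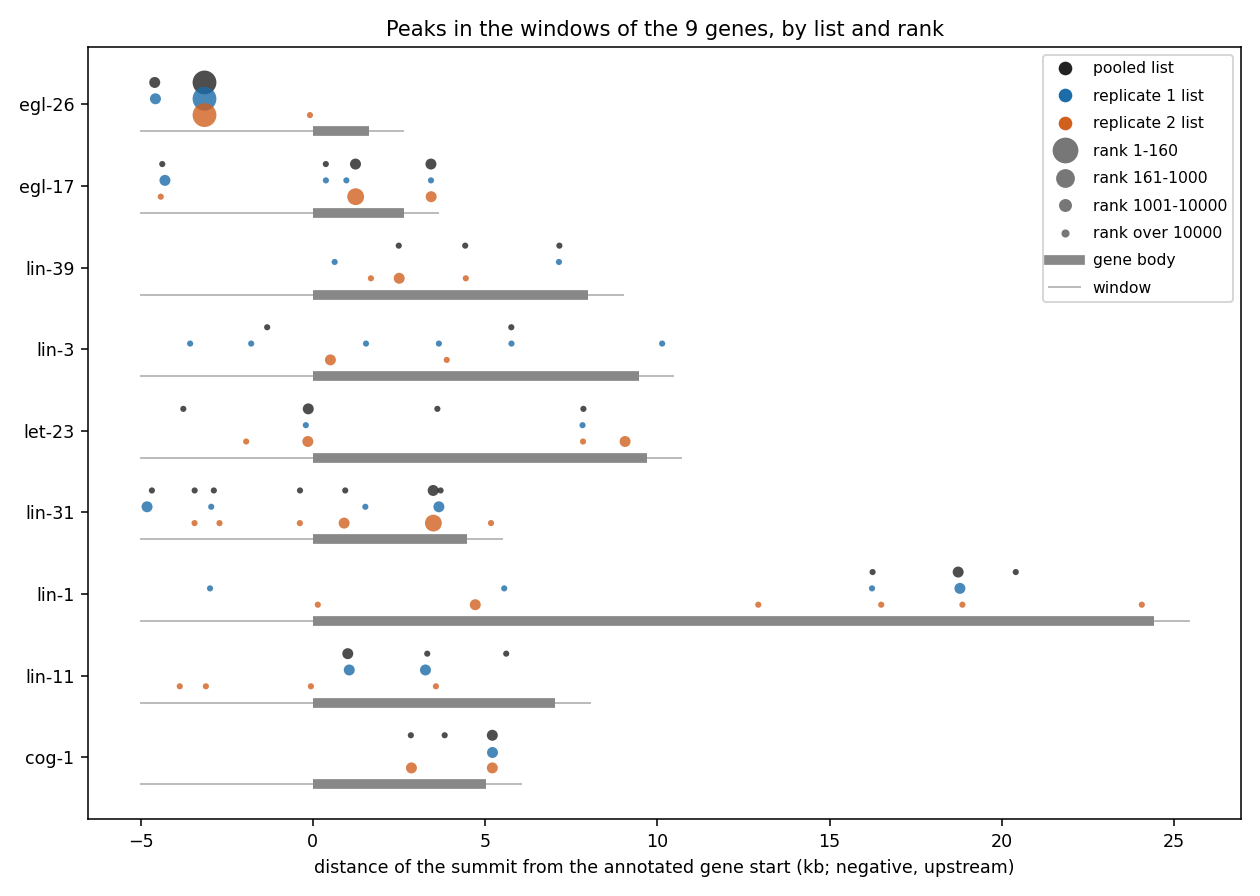
Each row is a gene, drawn from its annotated start at 0, with the body as a thick bar and the window as a thin line; the x axis is the distance of the summit from the gene start in kb. Dots are peaks of the pooled list and of each replicate, larger for better ranks. The large dots stand at egl-26, at -3144 bp in all 3 lists, and most other dots are small.

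egl-26 (WBGene00001193, chrII:69654-71279, plus strand) encodes a protein related to lecithin retinol acyltransferases that shapes the innermost vulval rings. Its peak (chrII:66332-66687) had a signal of 87.7 and rank 8 in the thresholded and pooled lists. In replicate 1 the peak had a signal of 56.9 and rank 18, and in replicate 2 a signal of 29.8 and rank 8. The peak was thus among the first 20 of every list. Within its list the height was 43.4% of the highest thresholded peak, 36.9% of the highest of replicate 1 and 55% of the highest of replicate 2. Those highest peaks were on chromosome X. The nearest gene was peb-1 in the thresholded list and replicate 1, and hex-1 in replicate 2. Any part of the transgene in their height was not tested. The egl-26 height was 2.01 times the median of the thresholded list.

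The egl-26 summit fell at the same base, 66510, in the pooled list and in both replicates. Among the thresholded peaks that overlapped both replicates the median distance between replicate summits was 46 bp, 27 had summits within 10 bp and 4 had them at the same base. Of all thresholded peaks, 11 ranked within the first 20 of both replicates, and 5 of those, egl-26 among them, were outside chromosome X. egl-26 had the second-highest of the 22 thresholded peaks on its chromosome. In rank, it was among the 42 thresholded peaks that stood higher in replicate 2 than in replicate 1.

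**Figure D2:**
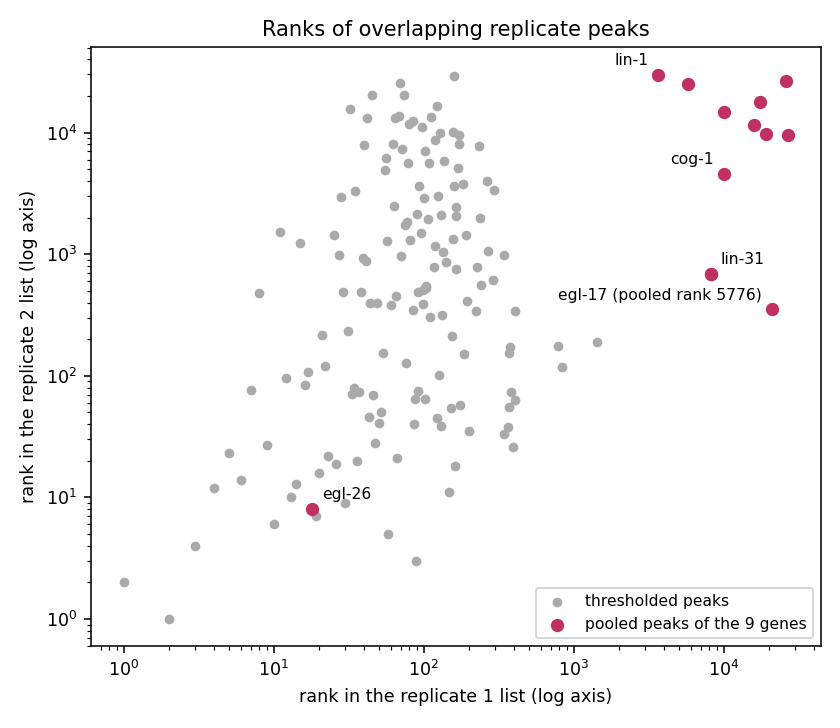
Rank in replicate 1 (x axis) against rank in replicate 2 (y axis), both on log axes, for thresholded peaks (grey) and for pooled peaks of the 9 genes (red) that overlapped a peak of each replicate; 2 lin-31 peaks share a point because they overlap the same replicate peaks. egl-26 lies at ranks 18 and 8 among the highest thresholded peaks, and the best replicate 1 rank of the other red points is 3643, at lin-1.

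The egl-26 peak stood in intergenic sequence at -3144 bp from the annotated start of the gene, which was the nearest start of a protein-coding gene. The gap between the neighbouring genes C23H3.2 and egl-26 is 5349 bp, longer than 88.8% of the 17073 gaps between protein-coding genes, whose median is 908 bp. C23H3.2 lies upstream on the same strand, and its annotated end was 2206 bp from the summit, closer than any edge of egl-26. The next gene beyond egl-26, C23H3.9, is on the opposite strand with its nearest edge 5162 bp away. The annotation held 0 piRNA genes in the gap. Close to the gene start the only entry was a replicate 2 peak at -83 bp with rank 27410 and a signal of 5.42, which overlapped no peak of replicate 1 or of the pooled list.

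A further peak stood just outside the upstream edge of the window. Its summit (chrII:63677) was 977 bp outside, at -5977 bp from egl-26, 2833 bp upstream of the first peak and 627 bp before the annotated end of C23H3.2, in a coding exon. It had rank 190 and a signal of 33.7 in the pooled list, under the lowest thresholded signal of 35.4 at rank 160. In replicate 2 it ranked 25 with a signal of 20.7, and in replicate 1 it ranked 1385 with a signal of 13.9. The replicate 1 and 2 summits were at -2 and 5 bp from the pooled summit, so they were close in position and far apart in rank. Neither motif was found within 100 bp of this summit. Inside the window, the other pooled peak at -4589 bp had pooled rank 8906 and replicate 1 rank 7246, and overlapped no replicate 2 peak.

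**Figure D3:**
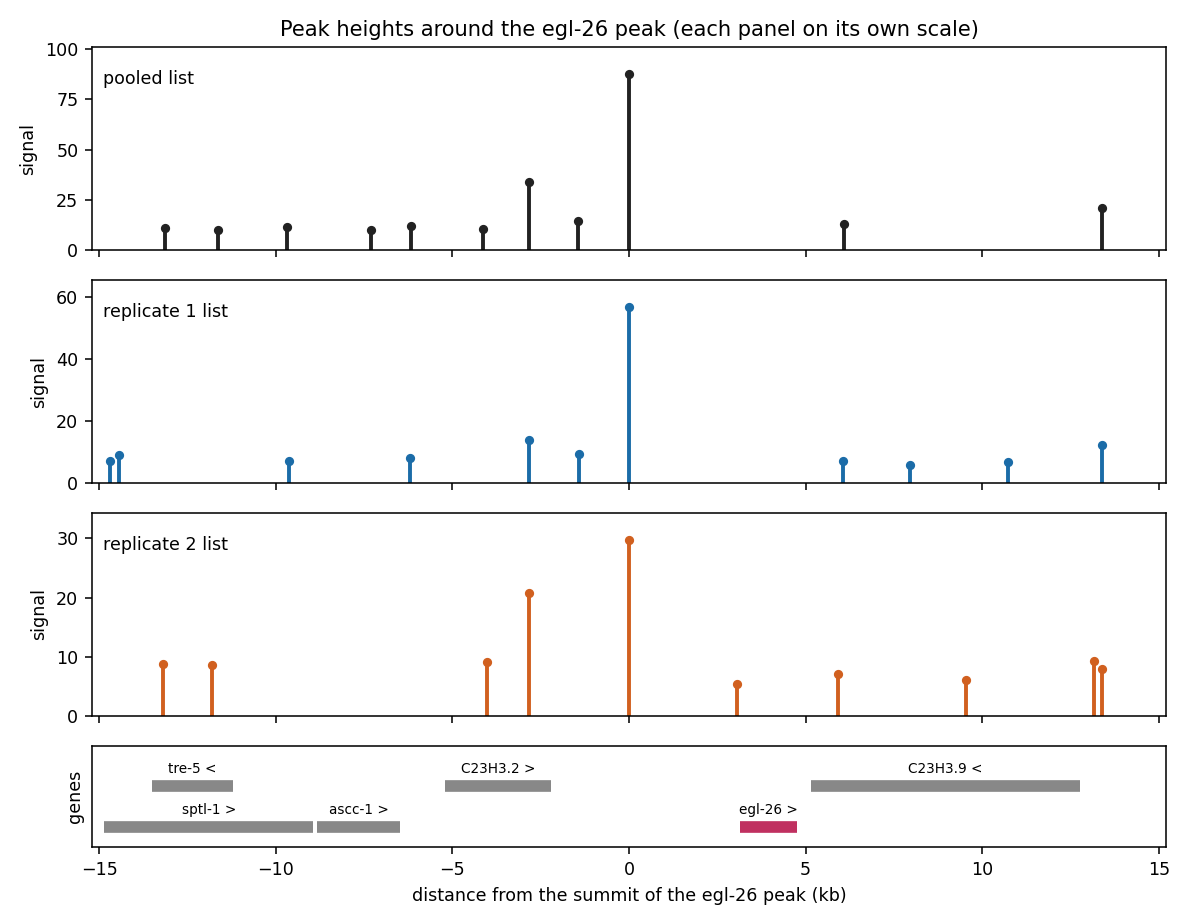
Peak signal (y axis, each panel on its own scale from 0) against distance from the egl-26 summit in kb (x axis), for the pooled, replicate 1 and replicate 2 lists, with protein-coding genes below (> plus strand, < minus strand). In every panel the highest bar is at 0, with signals of 87.7, 56.9 and 29.8, and the bar 2833 bp upstream is the next highest, at 33.7, 13.9 and 20.7.

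Of the signals, lin-3 and egl-17 had no peak that was high in both replicates. lin-3 (WBGene00002992, chrIV:11054308-11063768, plus strand) encodes the inductive EGF-like ligand. Its best pooled peak ranked 25967, its best replicate 1 peak 14328 and its best replicate 2 peak 9147, and these did not overlap each other. In all there were 2 pooled, 6 replicate 1 and 2 replicate 2 peaks, and 0 pooled peaks overlapped both replicates. A pooled peak of rank 2506, better than any inside, stood 654 bp outside the upstream edge of the lin-3 window.

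egl-17 (WBGene00001185, chrX:489685-492318, plus strand) encodes a fibroblast growth factor made by vulval cells that attracts migrating sex myoblasts. In an intron at 1239 bp from the gene start its pooled peak had rank 5776 and a signal of 16.2. Replicate 2 had rank 352 and a signal of 13.99 there, and the overlapping replicate 1 peak had rank 20860 and a signal of 6.73 with its summit at -264 bp from the pooled one. The peak was therefore high in 1 replicate and low in the other. The best pooled rank of the gene, 4334, belonged to a peak at 3429 bp, which was 204 bp inside the downstream edge and -114 bp from the start of the next gene, B0310.1. Its replicate ranks were 19205 and 9768, with summits 2 and 7 bp from the pooled summit. Within 100 bp this summit had 4 core matches and 2 of GAGAGA.

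The receptor gene let-23 (WBGene00002299, chrII:9197512-9207213, plus strand) had a peak beside its start. The summit was at -132 bp, in intergenic sequence, with pooled rank 7031 and a signal of 15.5. Replicate 1 ranked it 26757 with a signal of 5.97 and replicate 2 ranked it 9608 with a signal of 7.92, so it was low in both. A peak in a coding exon at 7855 bp had pooled rank 11856 and replicate ranks 17311 and 17977, with summits at -25 and -11 bp from the pooled one. The best replicate 2 peak of let-23, rank 3522 in an intron at 9065 bp, overlapped no peak of replicate 1 or of the pooled list.

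LIN-1 and LIN-31, an ETS and a forkhead transcription factor, act at the end of the MAP kinase cascade. lin-31 (WBGene00003017, chrII:3982549-3987029, plus strand) had the second-best pooled peak of the 9 genes, rank 1730 with a signal of 20.5, in an intron at 3494 bp. The nearest start of a protein-coding gene was that of K10G6.5, with the summit at -1207 bp from it. Replicate 2 had the peak at rank 691 with a signal of 12.8 and its summit 6 bp away. The overlapping replicate 1 peak had rank 8218, a signal of 9.16 and its summit 166 bp away, in a coding exon. lin-31 had the most pooled peaks, 7, or 6.68 per 10 kb, of which 3 overlapped both replicates. Of these 3, the peaks of ranks 1730 and 21528 overlapped the same peak of each replicate. Within 100 bp of the summit GC content was 37.3% at the lin-31 peak of rank 1730 and 49.8% at the egl-26 peak of rank 8.

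lin-1 (WBGene00002990, chrIV:2275861-2300286, minus strand) is the longest of the 9 genes at 24.4 kb and had the sparsest pooled peaks, 3 or 0.986 per 10 kb. All 3 were in its introns, from 16250 to 20406 bp from the gene start and at -4855 to -699 bp from the second annotated start. The best had pooled rank 6136, with rank 3643 and a signal of 11.2 in replicate 1 and rank 29949 and a signal of 5.18 in replicate 2.

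lin-39 (WBGene00003024, chrIII:7528641-7536632, minus strand), the Hox gene of the vulval precursor cells, had 3 pooled peaks of ranks 16869, 21157 and 24840, all within the gene. None overlapped both replicates. The best-ranked of them fell on C07H6.18, a non-coding RNA gene inside lin-39, had replicate 2 rank 23256, and overlapped no replicate 1 peak. The nearest thresholded peak to lin-39 was 318 kb from its start.

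lin-11 and cog-1 are homeobox genes that act later, lin-11 with a LIM domain in vulval and uterine cells and cog-1, of the Nkx6 class, in joining the vulva to the uterus. cog-1 (WBGene00000584, chrII:14902493-14907533, plus strand) had a peak at 5211 bp, past its annotated end and inside an intron of R03C1.1, a gene on the opposite strand. Its pooled, replicate 1 and replicate 2 ranks were 2898, 9966 and 4579, with signals of 18.6, 8.75 and 9.47. The replicate summits were 1 and 0 bp from the pooled summit, the closest agreement in the 9 genes after egl-26. The nearest start of a protein-coding gene was that of R03C1.1, at 2703 bp. The other 2 pooled peaks of cog-1, ranks 17144 and 17233, lay in its introns, and neither overlapped a replicate 1 peak.

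lin-11 (WBGene00003000, chrI:10248288-10255327, plus strand) had its 3 pooled peaks in introns. The best, at 1015 bp, had pooled rank 6378 and a signal of 15.9. Replicate 1 ranked it 1008 with a signal of 15.1, and no replicate 2 peak overlapped it, which is the reverse of the order at egl-17 and lin-31. The peak at 3322 bp, pooled rank 10562, overlapped peaks of ranks 9980 and 14736.

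**Figure D4:**
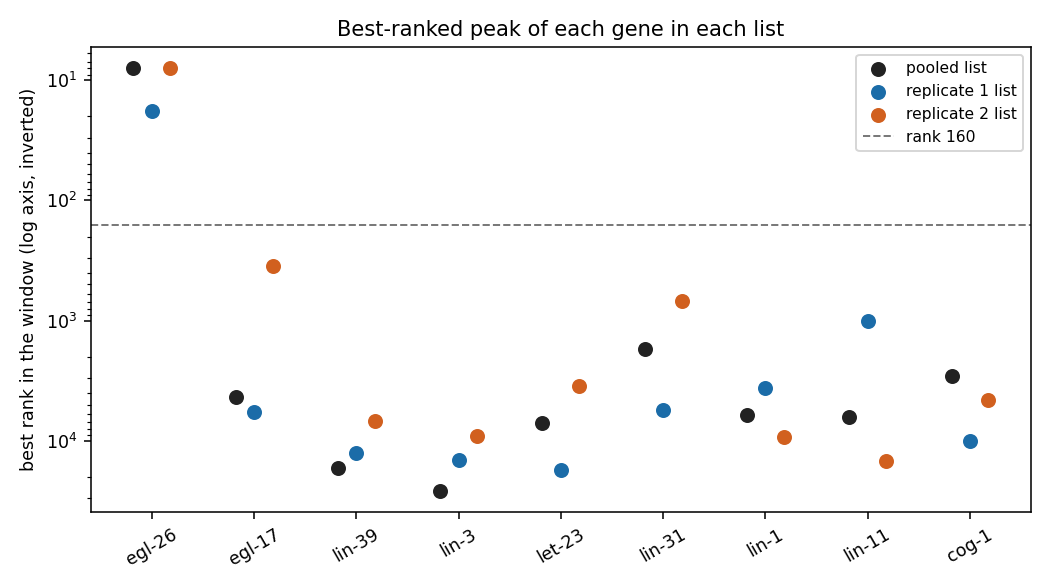
Best rank in the window of each gene (y axis, log scale, best at the top) in the pooled list and in each replicate, with a dashed line at rank 160. The 3 egl-26 points, at 8, 18 and 8, are the only ones above the line, and the next are egl-17 and lin-31 in replicate 2 at 352 and 691.

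Across the 31 pooled peaks of the 9 genes, 18 lay in an exon or intron of the gene itself, 1 on the non-coding RNA gene inside lin-39, 5 inside another protein-coding gene and 7 in intergenic sequence. The start of the member was the nearest protein-coding start for 16 of the 31, and 7 summits were within 1000 bp of an annotated start of the member. A peak that overlapped both replicates was found at 7 of the 9 genes, all but lin-3 and lin-39, where 56% of all protein-coding genes had such a peak. Since egl-26 was chosen by its peak, it adds nothing to this count or to the stricter ones below. Leaving egl-26 out, the count was 6 of 8. The windows of the 9 genes had a median of 13.0 kb against 8.03 kb over all protein-coding genes, and the part of window length in this count was not tested. With summits required to be at most 100 bp apart 4 of the 9 had such a peak, namely egl-26, egl-17, let-23 and cog-1, against 39.7% of all protein-coding genes, which is near the background, and with each replicate peak within the first 10000 of its list 3 did, namely egl-26, lin-31 and cog-1, against 15.16%. By peak, 12 of 31 were without a replicate 1 and 12 without a replicate 2 peak. Overlap was thus 19 of 31 with each replicate, against 65.0% and 61.9% of all pooled peaks. Peaks overlapping neither replicate were 6 of 31, and the share of all pooled peaks was not counted for this. Both replicates were overlapped by 13 of 31, which include 2 lin-31 peaks that overlap the same replicate peaks. Of all 30000 pooled peaks 34.2% overlapped both. Among peaks ranked below the first 10000 it was 6 of 22 for the members and 20.1% for the list, and in the 5000 ranks before those it was 3 of 5 and 49.3%.

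The recalled PEB-1 core lay within 100 bp of 13 of the 31 member summits (41.9%, exact 95% binomial interval 24.5-60.9, Clopper-Pearson). The same share was 35.2% of all pooled peaks and 65% of thresholded peaks. GAGAGA lay at 7 of 31 (22.6%, interval 9.59-41.1), against 13.5% and 57.5%. The full recalled consensus, which adds C or T before the core and A or T after it, lay at 8 of 31 (25.8%, interval 11.9-44.6), against 13.4% and 20%. Each interval held the share of all pooled peaks, and the thresholded share lay above the interval for the core and for GAGAGA. Within 50 bp of the summit it lay above for GAGAGA alone, since the thresholded core share of 46.9% was inside the member interval of 16.7-51.4. These intervals cover counting error over peaks only, and peaks of the same gene are not independent. The egl-26 peak belongs to both the member and the thresholded set. A share inside or outside an interval is therefore a description and not a test. The median GC content within 100 bp of the summit was 37.3% for the member peaks and for all pooled peaks, and 49.8% for thresholded peaks.

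Other genes of vulval development were taken from 6 lists of signalling, chromatin, transcription factor and morphogenesis genes, 122 in all. These lists were drawn up with earlier results of these data known, so the shares of their genes are a description only. A thresholded peak lay in the window of 2 of them (1.64%, against the 1.19% above), a pooled peak among the first 1000 in that of 19 (15.6%, against 7.44%), and a peak overlapping both replicates in that of 96 (78.7%, against 56%). Their windows had a median of 11.2 kb, against 8.03 kb for all protein-coding genes, and 3.43 pooled peaks per 10 kb, against 3.01. The part of window length in these shares was not tested. By list, a pooled peak among the first 1000 was found at 4 of 22 genes of the EGF receptor to MAP kinase cascade, 2 of 18 Notch genes, 3 of 20 Wnt genes, 1 of 21 synthetic multivulva genes, 5 of 21 transcription factors and cofactors, and 4 of 20 morphogenesis genes.

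**Figure D5:**
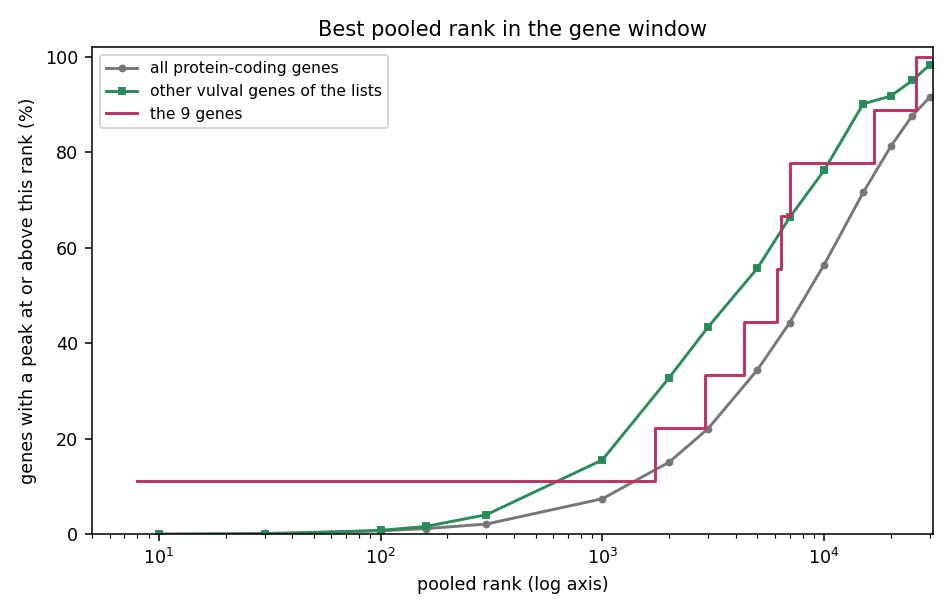
Percentage of genes (y axis) whose window holds a pooled peak of at least the rank on the x axis (log scale), for all protein-coding genes, the 122 other vulval genes and the 9 genes as a step line. At rank 1000 the values are 7.44%, 15.6% and 11.1%, the last being egl-26 alone, and at rank 10000 they are 56.5%, 76.2% and 77.8%.

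The 2 thresholded peaks were those of fos-1 and sys-1. fos-1 encodes a Fos-family transcription factor that the anchor cell needs to invade the vulval epithelium. Its peak was intergenic at -3101 bp from the gene start, with pooled rank 106 and a signal of 40.1, and ranked 133 in replicate 1 and 319 in replicate 2. The start of fos-1 was the nearest protein-coding start. The peak in the window of sys-1, a beta-catenin gene of Wnt signalling, lay at -4145 bp from its start, with pooled rank 49. Its nearest starts were those of his-67 and his-68, which encode histones, at -176 and -193 bp. It ranked 40 in replicate 1 and 7875 in replicate 2.

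Among the other 17 genes with a pooled peak in the first 1000, the peaks of sli-1, lin-29, lag-1, sqv-8, mpk-1, cwn-1 and pop-1 and the better of 2 at bed-3 were within the first 5000 of both replicates. At sli-1, a Cbl-type negative regulator of LET-23, the peak at -2044 bp had pooled rank 194 and replicate ranks 345 and 164. Introns of lin-29, a zinc finger gene of late larval and vulval fates, held peaks of pooled ranks 318 and 616, with replicate ranks 651 and 602 for the first and 1492 and 1114 for the other. In lag-1, the transcription factor gene of Notch signalling, intron peaks had pooled ranks 395 and 714, with replicate ranks 1427 and 3189 for the first and 4764 and 440 for the other. sqv-8, a glycosyltransferase gene of vulval morphogenesis, had pooled rank 371 at -740 bp with replicate ranks 793 and 1585.

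Several peaks, some of them of genes named above, ranked far higher in 1 replicate than in the other. bed-3, a zinc finger gene expressed in vulval cells, had pooled ranks 166 and 328, ranks 248 and 294 in replicate 1, and 2172 and 27224 in replicate 2. mel-11, a myosin phosphatase subunit gene, had pooled rank 338, 221 in replicate 1 and 7590 in replicate 2. The peaks of hpl-2 (pooled rank 191), ajm-1 (363) and 1 of the 2 of nhr-25 (810) overlapped no replicate 2 peak, and that of hpl-2 lay -65 bp from the start of tasp-1. The other nhr-25 peak had pooled rank 451, 396 in replicate 1 and 7776 in replicate 2. unc-101, a clathrin adaptor gene, had pooled rank 581 with replicate ranks 534 and 28194, and adm-4, an ADAM protease gene, had 513 with 389 and 24335. In the other direction, dep-1, a receptor phosphatase gene that opposes LET-23, had pooled rank 913, 15668 in replicate 1 and 536 in replicate 2. Replicate 2 also had the better rank, by a narrower gap than at dep-1, for mpk-1, cwn-1, pop-1 and lin-26. The ERK gene mpk-1 had pooled rank 536 with replicate ranks 2254 and 900, and the Wnt gene cwn-1 had 594 with 3685 and 386. The TCF gene pop-1 had 679 with 3966 and 1304, and lin-26 had 849 with 6063 and 703. Of the 23 pooled peaks of all 19 genes, 20 overlapped both replicates and 18 had the list gene as the nearest protein-coding start. The cwn-1 summit lay in a coding exon of K10B4.1, whose start was nearer than that of cwn-1. The adm-4 summit was -894 bp from the start of ZK154.6 and 3841 bp from that of adm-4. The lin-26 summit lay in an intron of lir-1.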

How the data were processed

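PEB-1 ChIP-seq peak lists of 2 biological replicates were analysed in ce11 coordinates, 1-based. Per the file names and the accompanying file listing, the authors deposited 1 relaxed list per replicate, 1 pooled from both, and a thresholded list, the optimal set of an irreproducible discovery rate procedure, with a control named in the listing. The deposited signal is peak height, and its scale is not stated. The deposited score, a −log10 q-value by the file format, goes below 0 in the pooled list, so it only broke ties of rank. For the aligner, the peak caller, their settings and the read depth, nothing was given in the sources used here. Lists in ce10 and signal tracks were not used here.

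Genes came from Ensembl release 115 of WBcel235 (46890 nuclear genes) and sequences from RefSeq. Overlap meant at least 1 bp. A gene had a replicate-supported peak where a pooled peak in its window overlapped a peak of each replicate. Windows, overlaps and motif matches were checked on simulated data. Of 123 listed symbols 122 matched. The members and lists were chosen with earlier results of these data known, and all 9 members were named, as was every listed gene with a pooled peak among the first 1000 except 1 that is not reported here. With 1 group no test was made, and counts stand beside the share of all protein-coding genes. Intervals are exact 95% binomial. Python 3.11.15 with pandas 2.3.3 and scipy 1.17.1 was used.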

Additional observations from a re-analysis of the deposited data

How the results depend on the processing

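The thresholded count of 1 of 9 members became 0 with a window of 2000 bp upstream to 500 bp downstream, since the egl-26 summit lies 3144 bp upstream, as did the count of 1 for the first 1000 pooled peaks. The thresholded count was 1 under the wider window, the nearest start, the 80 highest peaks and without either replicate. From the first 1000 peaks of a single replicate the members counted were 3 without replicate 1, namely egl-26, egl-17 and lin-31, and 1 without replicate 2. The shares of all protein-coding genes were then 8.25% and 7.65%. The 7 replicate-supported members became 4 with summits at most 100 bp apart and 3 with replicate peaks within the first 10000. The share of all protein-coding genes went from 56% to 39.7% and 15.16%. These member counts include egl-26, which was chosen by its own peak. With support from a single replicate the members were 8 to 9, and the share of all protein-coding genes was not counted for this. Of other vulval genes, the 2 with a thresholded peak became 0 with the narrower window, 4 with 10000 bp upstream to 2000 bp downstream, 1 with each peak given to the nearest start, 1 among the 80 highest thresholded peaks, and 1 to 3 without a replicate. The share of all protein-coding genes with a thresholded peak was 0.726% with the narrower window, 2.01% with the wider and 0.621% by nearest start. From the first 160 peaks of a single replicate it was 1.23% without replicate 1 and 1.18% without replicate 2. The 96 replicate-supported genes among the other vulval genes became 61 by nearest start, where the share of all protein-coding genes was 31.96%. They became 38 within the first 10000, where that share was 15.16%. Within 50 bp of the summit the member shares of the core, GAGAGA and the full consensus fell to 32.3%, 16.1% and 12.9%, those of all pooled peaks to 19.8%, 7.25% and 7.02%, and those of thresholded peaks to 46.9%, 40.6% and 14.4%. The core share of thresholded peaks was then inside the member interval. No paired analysis was possible because there was 1 group. Depth was not known, so an absent peak was not read as absent binding.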
